A study of Mus musculus with 14 samples.

Results

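Transcript levels of 10 BCL2 family genes were followed in mouse embryonic stem (ES) cells held under mTOR inhibition. The genes were *Bcl2*, *Bcl2l1*, *Mcl1*, *Bcl2l11*, *Bbc3*, *Pmaip1*, *Bax*, *Bak1*, *Bmf* and *Bik*, found by name among the 54446 gene identifiers of the RNA-seq tables. They were chosen on measured values of these data: *Bmf* had been seen to be higher at all mTORi times in wild-type cells. Wild-type time points are therefore given below as a description, with no test. Of the 10 genes, 9 passed the filter on low values (a mean of at least 1 TPM over the 14 libraries), as did 18232 genes in all. *Bcl2* did not pass, at a mean of 0.362 spike-in normalized TPM.

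All 14 libraries came from E14 ES cells, grown in serum and LIF without feeders. There were 8 libraries of the wild type (WT), taken at 0, 24, 72 and 144 h of the mTOR inhibitor INK128 (mTORi), with 0 h as the untreated control. The other 6 were labelled *Tet1/2* double knockout (DKO), taken at 0, 24 and 72 h. Each of the 7 groups held 2 replicates. The DKO line was derived from E14 cells by Cas9 cuts inside *Tet1* and *Tet2*, with clones grown from single sorted cells, so that a difference between DKO and WT cannot be told apart from a difference between cell lines. Viable single cells were sorted before RNA extraction, and cells that had lost viability were thus not measured.

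Each value is given on 2 scales. Plain TPM, as deposited, is the share of a transcript in its library after correction for length. Spike-in normalized TPM is the same value multiplied by 1 factor per library that the authors took from added ERCC standards, and it follows the amount of a transcript relative to those standards. The number of cells per extraction was held constant, and within that number fewer cells expressing a gene and less of its RNA per cell cannot be told apart. The median of all genes tested moved by −0.33, −0.33 and −0.83 (log2) in WT at 24, 72 and 144 h on the spike-in scale, and by −0.49 and −0.12 in DKO at 24 and 72 h. On plain TPM these medians lay between −0.0077 and 0.135. The DKO replicates stood apart on the spike-in scale, where the mean over all gene identifiers was 41.1 and 24.9 TPM at 24 h and 46.5 and 31.7 TPM at 72 h. Plain TPM of the 6 ES cell markers was high in every library, from 66.4 (*Klf4*) to 1057 (*Pou5f1*), whereas the summed plain TPM of 12 markers of other cell types was 50.7 to 78.9 at WT 24 h and 16.8 to 36.0 in the other groups. *Tet2* was at 15.9 to 22.2 plain TPM in the DKO libraries and at 96.0 to 143 in WT. *Tet1* was at 147 to 248 plain TPM in the DKO libraries and at 191 to 349 in WT, ranges that overlap. The cuts lay within the gene for *Tet1* and *Tet2* alike, and the value over all exons of *Tet1* does not show its loss. Why it stayed at this level was not tested. The study reports that PCR and western blots checked the knockout of both genes.

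The BCL2 family sets whether the mitochondrial outer membrane stays closed. The effectors BAX and BAK open it once activated, which releases cytochrome c and starts the caspases. The pro-survival members BCL2, BCL-XL (from *Bcl2l1*) and MCL1 hold the effectors in check, and the BH3-only proteins BIM (*Bcl2l11*), PUMA (*Bbc3*), NOXA (*Pmaip1*), BMF and BIK bind the pro-survival members through a short helix, the BH3 domain, and thereby favour opening. ES cells are known for a low threshold for apoptosis, and *Mcl1* is required in the early mouse embryo.

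The BH3 domain is the one feature that all these proteins share by sequence, and its core is shown here because BH3-only proteins bind the pro-survival members through it. It was searched as a leucine followed, after any 3 residues and a small residue (glycine, alanine or serine), by an aspartate. Each of 9 proteins held 1 match and NOXA held 2. The 24 bases that start at the leucine codon are given 5′ to 3′ from GENCODE M21 transcripts, with the codons of the leucine and the aspartate in capitals. NOXA is named only.
Bcl2: CTCcgccgggctgggGATgacttc
Bcl2l1: CTGagagaggcaggcGATgagttt
Mcl1: CTGcggcgcgtgggcGACggcgtg
Bax: CTCcggcgaattggaGATgaactg
Bak1: CTTgctctcatcggaGATgatatt
Bmf: CTTcagtgtattgcaGACcagttc
Bcl2l11: CTGcggcggatcggaGACgagttc
Bbc3: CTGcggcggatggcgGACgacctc
Bik: CTGgcctgcatcggcGATgagatg
In the GRCm38 (mm10) genome the *Bmf* core lies in exon 4 at chr2:118545103-118545126 on the minus strand, the *Bak1* core at chr17:27022534-27022557 and the *Bax* core at chr7:45466000-45466023, both also on the minus strand. All 9 cores were contiguous within 1 coding exon. The codon before the aspartate was one of alanine in 2 genes, *Bmf* (gca) and *Bbc3* (gcg), and one of glycine in the other 7.

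Among the pro-survival genes, *Mcl1* was by far the most abundant transcript and *Bcl2* was close to absent. *Bcl2* lay between 0.0842 and 0.325 plain TPM over the 14 libraries, a level at which the order of the groups was not read. *Mcl1* encodes a short-lived protein that restrains BAK and binds NOXA and BIM. Its plain TPM in the 2 replicates was 188 and 248 (WT 0 h), 215 and 251 (24 h), 320 and 307 (72 h), and 354 and 358 (144 h). In DKO it was 166 and 155 (0 h), 194 and 176 (24 h), and 224 and 243 (72 h). On plain TPM the WT 72 h and 144 h libraries lay above both WT 0 h libraries, and both DKO 72 h libraries lay above both at 0 h. On the spike-in scale the group means of *Mcl1* stayed within 337 ± 138 (DKO 24 h) and 494 ± 105 TPM (DKO 72 h; SD, n = 2), and groups next to each other in the order of their means overlapped. At WT 144 h the order was reversed between the scales, since its spike-in normalized values (379 and 358 TPM) lay below both at WT 0 h (396 and 524 TPM).

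*Bcl2l1* encodes BCL-XL. Its plain TPM was 30.1 and 33.2 (0 h), 41.7 and 39.2 (24 h), 24.9 and 30.6 (72 h), and 19.4 and 21.4 (144 h). Both 24 h libraries were thus above, and both 144 h libraries below, the untreated cells. On the spike-in scale WT 144 h had 21.1 ± 0.422 TPM and WT 0 h 66.8 ± 4.57 (SD, n = 2). On the log2 scale this was −1.62 ± 0.29 (SE from limma), the lowest value of the 9 members at that time. In DKO the 6 libraries lay between 28.4 and 36.8 plain TPM. The ratio of *Mcl1* to *Bcl2l1* within a library, which no scaling alters, was 6.23 and 7.48 (WT 0 h), 12.9 and 10.02 (72 h), and 18.3 and 16.7 (144 h). In DKO this ratio was 5.23 and 4.83 (0 h) and 7.19 and 8.54 (72 h). At 24 h the ratios overlapped those of the untreated libraries in both genotypes, and at 72 h they no longer did. Relative to *Bax*, *Mcl1* was at a ratio of 0.960 and 1.06 (WT 0 h) and 1.92 and 1.99 (144 h), and of 0.733 and 0.662 (DKO 0 h) and 1.23 and 1.18 (72 h).

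**Figure D1:**
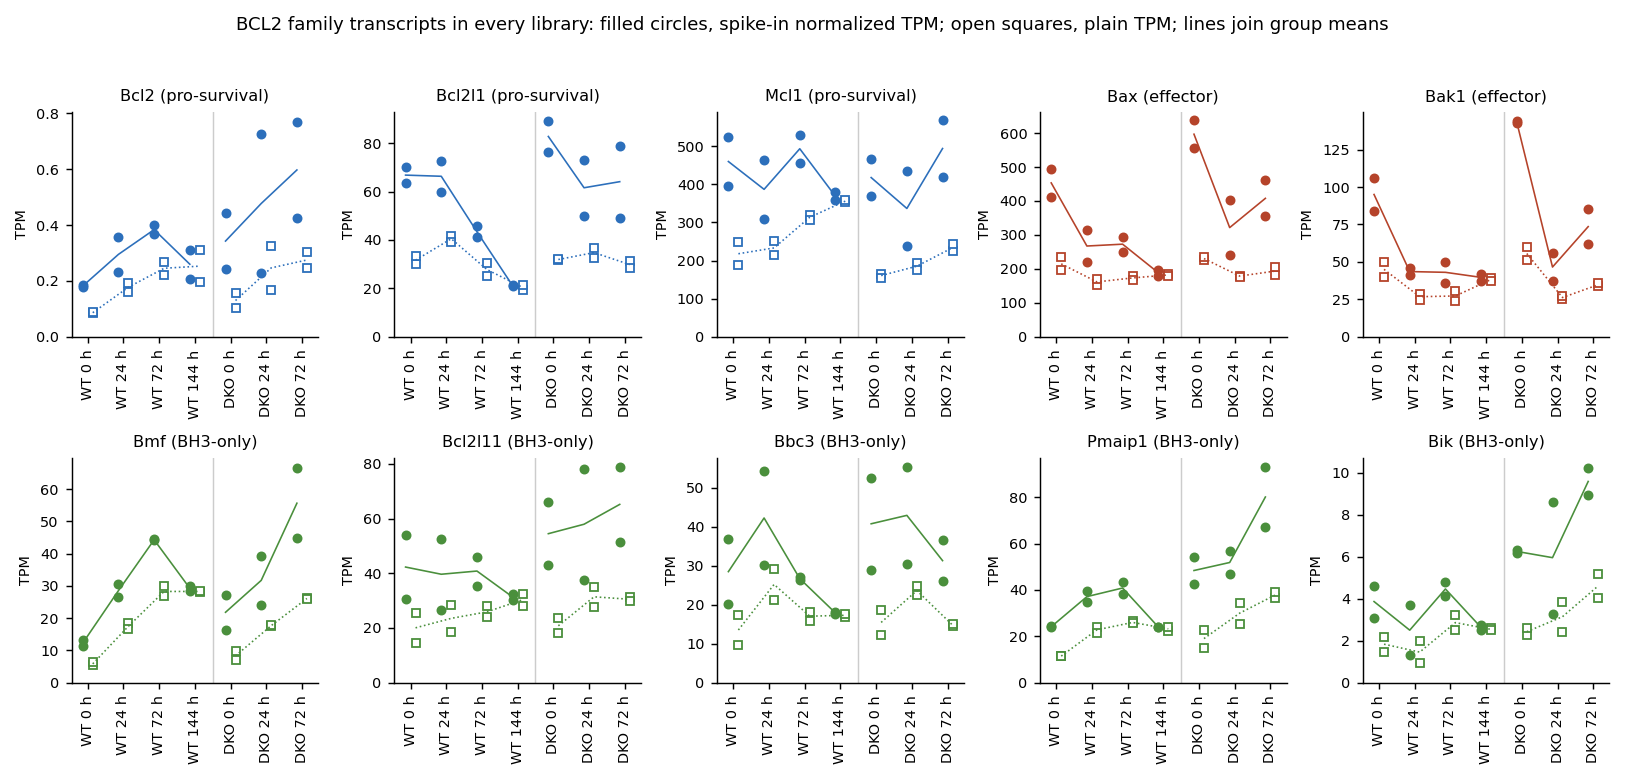
TPM of each of the 10 genes (vertical axes, linear from 0) in every library of the 7 groups (horizontal axes). Filled circles are spike-in normalized TPM, open squares plain TPM, and solid and dotted lines join the group means within a genotype. *Bmf* was at 5.34 and 6.25 plain TPM in the untreated WT libraries and at 16.5 to 29.8 in the 10 mTORi libraries.

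Both effector genes were lower under mTORi. *Bak1* encodes an effector that resides in the outer mitochondrial membrane. Its spike-in normalized TPM was 106 and 84.1 (WT 0 h), 41.3 and 45.8 (24 h), 49.99 and 36.0 (72 h), and 42.2 and 37.1 (144 h). In DKO it was 144 and 142 (0 h), 56.2 and 36.9 (24 h), and 85.1 and 61.9 (72 h). In both genotypes every mTORi library was below every untreated library. Plain TPM gave the same separation, with 50.2 and 39.8 (WT 0 h), 28.8 and 24.7 (24 h), 30.3 and 24.2 (72 h), and 39.4 and 37.1 (144 h), where the WT 144 h libraries lay just below the lower of the untreated ones. In DKO, plain TPM of *Bak1* was 51.1 and 60.0 (0 h), 25.1 and 27.2 (24 h), and 33.6 and 35.9 (72 h). Many genes were lower in WT without overlap. At 24, 72 and 144 h they made up 47.8%, 55.3% and 82.1% of all genes on the spike-in scale. On plain TPM the shares were 31.6%, 28.3% and 30.0%. For DKO such a share was not computed.

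*Bax* encodes the effector that moves from the cytosol to mitochondria. Its spike-in normalized TPM was 412 and 494 (WT 0 h), 219 and 315 (24 h), 295 and 250 (72 h), and 197 and 180 (144 h). In DKO the values were 637 and 556 (0 h), 402 and 241 (24 h), and 461 and 354 (72 h). As for *Bak1*, no mTORi library reached an untreated library of its genotype, and the shares of all genes given there apply to *Bax* too. On plain TPM the *Bax* groups stood closer together, with 195 and 234 (WT 0 h) against 153 to 184 at the 3 later times, and 226 and 234 (DKO 0 h) against 177 to 205 later.

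*Bak1* shares its locus with *Ggnbp1* on the opposite strand, whose group means were 12.1 to 16.8 plain TPM. Those of *Ggnbp1* were 12.7 ± 1.41 at WT 0 h and 14.6 ± 0.760 at 24 h, and 12.1 ± 1.03 at DKO 0 h and 16.5 ± 2.14 at 24 h (SD, n = 2), the reverse order to *Bak1*. The quantification options given by the authors name no strand setting, so reads from the shared part of the 2 genes may not have been kept apart. The other members overlapped no gene, or only genes listed at no more than 0.385 TPM.

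*Bmf*, the gene whose values chose the set, encodes a BH3-only protein that is held on the cytoskeleton through dynein light chain 2. Its plain TPM was 5.34 and 6.25 (WT 0 h), 18.5 and 16.5 (24 h), 26.7 and 29.8 (72 h), and 28.0 and 28.5 (144 h). Spike-in normalized TPM was 11.3 and 13.2 (WT 0 h), 26.5 and 30.6 (24 h), 44.1 and 44.4 (72 h), and 30.0 and 28.5 (144 h). The untreated libraries were lowest on both scales. The 72 h and 144 h groups were level on plain TPM (28.3 ± 2.19 and 28.3 ± 0.303; SD, n = 2) but not on the spike-in scale (44.3 ± 0.208 and 29.2 ± 1.09). The DKO libraries had no part in the choice. There plain TPM of *Bmf* was 9.70 and 6.86 (0 h), 17.6 and 17.7 (24 h), and 26.3 and 25.9 (72 h), with no overlap between the 3 times. Spike-in normalized TPM was 27.3 and 16.3 (DKO 0 h), 39.4 and 24.0 (24 h), and 66.6 and 44.7 (72 h), where the 24 h libraries overlapped those at 0 h. Within each replicate number the 24 h library was above the 0 h library.

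The other BH3-only genes were less uniform. *Pmaip1* encodes NOXA, a p53 target that binds MCL1. Its plain TPM was 11.3 and 11.5 (WT 0 h), 24.1 and 21.4 (24 h), 26.4 and 25.5 (72 h), and 22.3 and 24.1 (144 h). In DKO it was 15.1 and 22.9 (0 h), 25.4 and 34.5 (24 h), and 36.7 and 39.0 (72 h). Every mTORi library thus exceeded the untreated libraries of its genotype on plain TPM. On the spike-in scale the WT 144 h mean (24.0 ± 0.104) was level with WT 0 h (24.1 ± 0.365; SD, n = 2).

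*Bbc3*, which encodes PUMA, had its highest plain TPM at 24 h, with 21.1 and 29.2 in WT and 24.7 and 22.4 in DKO, against 9.53 and 17.4 (WT 0 h) and 18.7 and 12.2 (DKO 0 h). At 72 h it was at 15.9 and 18.2 in WT and 14.4 and 15.02 in DKO, within the range of the untreated libraries in DKO. *Bcl2l11*, which encodes BIM, ranged from 14.5 to 34.9 plain TPM, and its WT 0 h replicates (14.5 and 25.5) overlapped those of 24 h and 72 h. Its WT 144 h libraries (28.2 and 32.4) lay above both at 0 h, as they did for 37.3% of all genes. In DKO the 24 h (34.9 and 27.8) and 72 h libraries (31.1 and 29.8) lay above those at 0 h (23.5 and 18.1). On the spike-in scale *Bcl2l11* overlapped in each of these comparisons. *Bik* was the least abundant BH3-only gene in every library, at 0.918 to 5.17 plain TPM, with its highest values at DKO 72 h (4.04 and 5.17).

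The balance of roles within a library does not depend on scaling. The effectors made up 48.6 and 44.3% of the summed TPM of the 10 genes at WT 0 h, 34.8 and 33.4% (24 h), 31.9 and 30.5% (72 h), and 32.2 and 30.9% (144 h). In DKO this share was 51.0 and 54.1% (0 h), 38.0 and 39.2% (24 h), and 36.9 and 38.4% (72 h). The BH3-only share went the other way, from 8.34 and 10.2% (WT 0 h) to 14.1 to 16.7% at later times, and from 12.7 and 11.5% (DKO 0 h) to 18.3 to 20.1%. The pro-survival share was higher under mTORi as well, at 49.2 to 54.1% in the 6 treated WT libraries against 43.1 and 45.5%, and at 40.7 to 43.8% in the 4 treated DKO libraries against 36.3 and 34.4%. The shares are parts of a whole, so a lower share of one role raises the others. The BH3-only share includes *Bmf*, whose WT values chose the set. Its mean part of the whole was 1.03% (WT 0 h), 4.41% (72 h) and 4.05% (144 h). *Bmf* made up 12.7 and 9.94% of the BH3-only TPM at WT 0 h and 28.6 and 27.1% (144 h), and 14.03 and 11.0% (DKO 0 h) and 23.3 and 22.5% (72 h). Set against *Bcl2l1*, one of its binding partners, *Bmf* was at a ratio of 0.177 and 0.188 (WT 0 h), 0.442 and 0.420 (24 h), 1.07 and 0.974 (72 h), and 1.45 and 1.33 (144 h). The same ratio in DKO was 0.306 and 0.214 (0 h), 0.538 and 0.481 (24 h), and 0.843 and 0.910 (72 h). In both genotypes the *Bmf* to *Bcl2l1* ratios of successive times did not overlap.

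**Figure D2:**
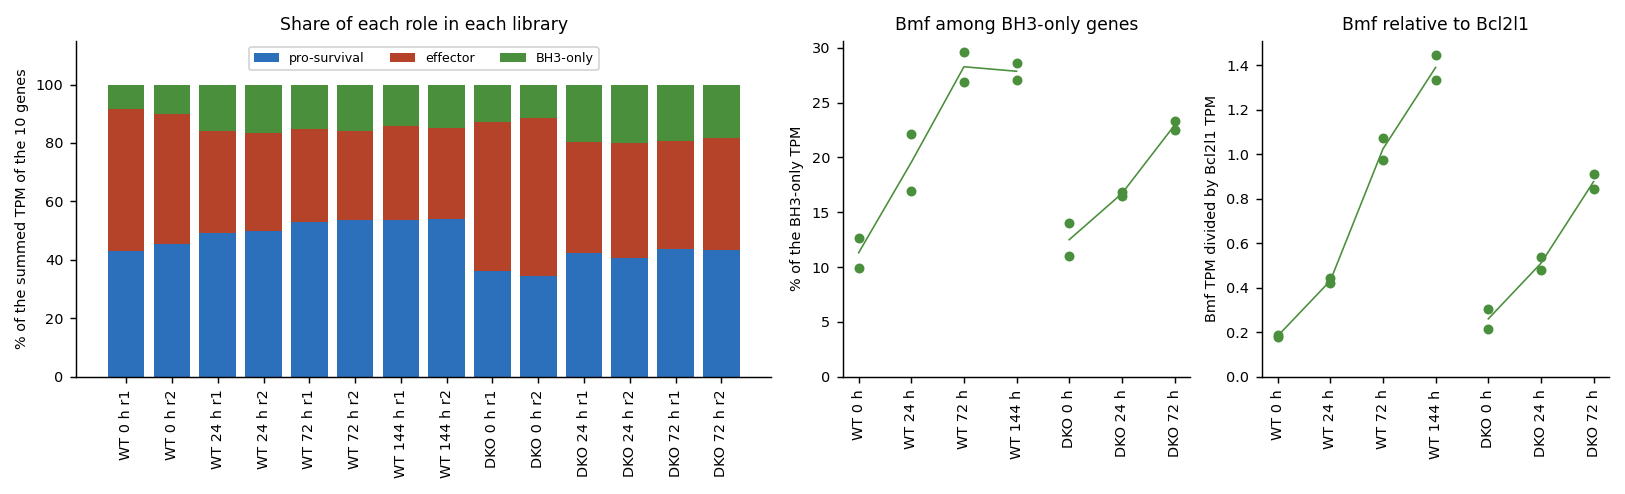
Left, share of the pro-survival, effector and BH3-only genes in the summed TPM of the 10 genes (vertical axis, %) in each of the 14 libraries (r1 and r2 are replicates). Middle and right, *Bmf* as a percentage of the BH3-only TPM and as a ratio to *Bcl2l1* (points are libraries, lines join group means); the ratio went from 0.183 at WT 0 h to 1.39 at WT 144 h.

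For the WT time points, the spread of the members was set beside that of all 18232 genes. At 24 h, 2 of the 9 members were higher than WT 0 h without overlap on the spike-in scale (*Pmaip1*, *Bmf*) and 2 were lower (*Bax*, *Bak1*), where 12.1% of all genes were higher and 47.8% lower. On plain TPM 4 were higher and 2 lower, against 32.4% and 31.6% of all genes. At 72 h the counts on the spike-in scale were 2 higher and 3 lower, *Bcl2l1* being the third, against 12.9% and 55.3%. On plain TPM 4 were higher and 2 lower, against 33.8% and 28.3%. At 144 h *Bmf* alone was higher on the spike-in scale and 6 were lower, against 3.61% and 82.1%, and on plain TPM 5 were higher and 3 lower, against 37.3% and 30.0%. *Bmf* entered the set through this contrast, and nothing is read from these counts. Its log2 fold changes were 1.16, 1.78 and 1.20 at 24, 72 and 144 h on the spike-in scale (SE 0.33 each) and 1.44, 2.11 and 2.11 on plain TPM (SE 0.14 each). *Bak1* had −1.10, −1.13 and −1.23 on the spike-in scale (SE 0.29 each) and −0.72, −0.70 and −0.22 on plain TPM (SE 0.14 each).

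**Figure D3:**
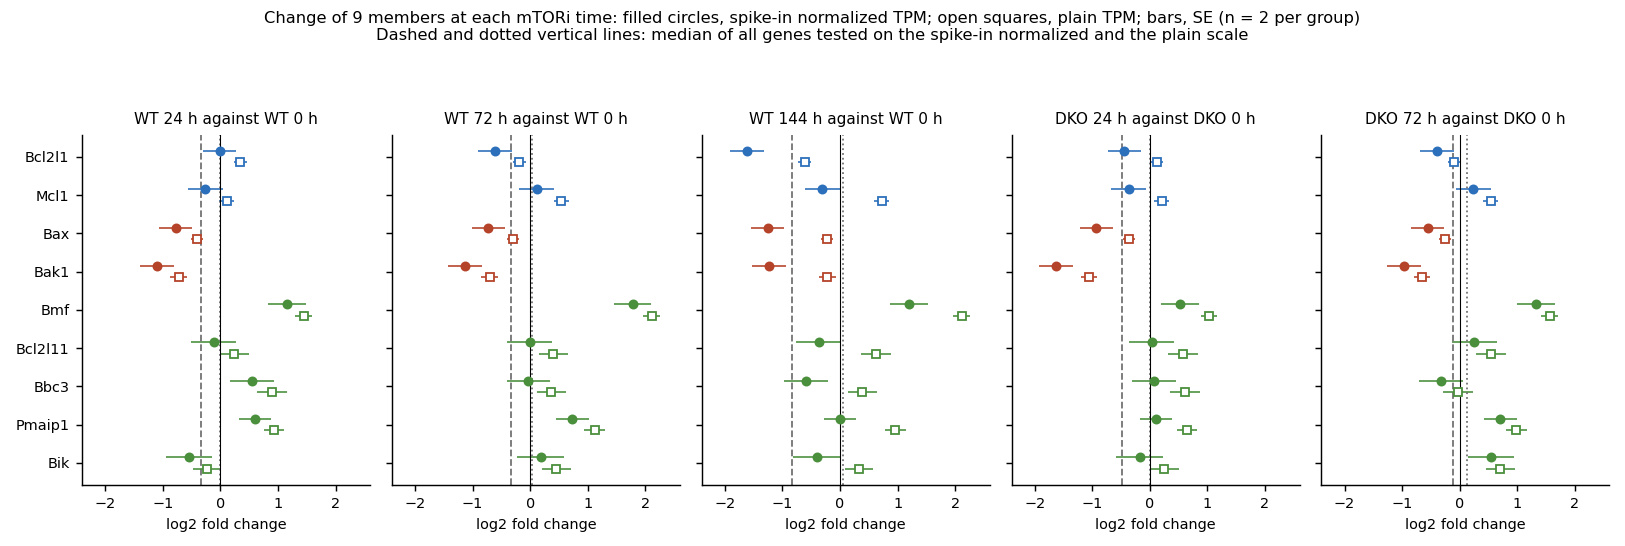
log2 fold change of the 9 members tested (vertical axis) at each mTORi time against 0 h of the same genotype (horizontal axis, log2 of TPM + 1). Filled circles are spike-in normalized and open squares plain TPM, bars are SE from limma (n = 2 per group), and dashed and dotted lines mark the median of all genes on the spike-in and plain scale. On each scale *Bax* and *Bak1* lie below the median of that scale in all 5 panels, and *Bmf* lies above it.

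The response to mTORi was tested in DKO, whose libraries did not choose the set. At 24 h against 0 h, *Bak1* and *Bax* fell and no member rose on the spike-in scale. Thus 2 of the 9 members were lower, against 18.7% of all genes, and 0 were higher, against 0.505%. *Bak1* had a log2 fold change of −1.63 ± 0.29 (SE, n = 2, limma with Benjamini-Hochberg adjusted p = 0.0012) and was lower in 2 of 2 libraries. *Bax* had −0.93 ± 0.29 (limma adjusted p = 0.028), and with no filter on low values it did not pass (limma adjusted p = 0.083). The median over the 9 members was −0.17, against −0.49 over all genes, with 2 members below the latter. With 1 library left out, an arm of 1 sample is assumed to vary like the other groups. Without DKO 0 h replicate 1, DKO 0 h replicate 2 or DKO 24 h replicate 2, *Bax* had −0.84, −1.03 and −0.56 and did not pass (limma adjusted p = 0.21, 0.078 and 0.26). *Bak1* had −1.33 to −1.93 over the 4 such fits and passed in each.

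On plain TPM, *Bmf* and *Pmaip1* also rose at DKO 24 h. The calls were 2 higher and 2 lower, against 11.6% and 13.3% of all genes. The log2 fold change of *Bmf* was 1.02 ± 0.14 on plain TPM (limma adjusted p = 0.00081) and 0.52 ± 0.33 on the spike-in scale (adjusted p = 0.26). With the replicates paired within the genotype as a block, the spike-in value had an adjusted p of 0.051 (limma). *Pmaip1* had 0.64 ± 0.18 on plain TPM (limma adjusted p = 0.024) and 0.10 ± 0.28 on the spike-in scale (adjusted p = 0.82). With each library centred on its median, *Pmaip1* had 0.56 and did not pass (limma adjusted p = 0.058). *Bak1* had −1.05 ± 0.14 and *Bax* −0.36 ± 0.10 on plain TPM (limma adjusted p = 0.00071 and 0.024). The 2 effectors were thus the members called on both scales at 24 h.

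At 72 h against 0 h in DKO, *Bmf* rose and no other member passed the test on the spike-in scale. That is 1 of 9 members higher, against 0.713% of all genes, and 0 lower, against 2.95%. The log2 fold change of *Bmf* was 1.33 ± 0.33 (SE, n = 2, limma adjusted p = 0.029), and it was higher in 2 of 2 libraries. With no filter on low values the same change did not pass (limma adjusted p = 0.070). Without DKO 0 h replicate 2, DKO 72 h replicate 1 or DKO 72 h replicate 2, *Bmf* had 0.97, 1.05 and 1.61 and did not pass (limma adjusted p = 0.30, 0.13 and 0.069). *Bak1* had −0.97 ± 0.29 (limma adjusted p = 0.069) and *Pmaip1* 0.71 ± 0.28 (adjusted p = 0.16). With the replicates paired within the genotype as a block, both passed (limma adjusted p = 0.0052 and 0.033), which brought the calls to 2 higher and 1 lower, against 5.34% and 13.2% of all genes in that fit. The median over the 9 members was 0.23, against −0.12 over all genes.

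On plain TPM the DKO 72 h calls were 3 higher and 1 lower, against 17.2% and 9.06% of all genes. *Bmf* had a log2 fold change of 1.56 ± 0.14 (limma adjusted p = 0.00017), *Pmaip1* 0.99 ± 0.18 (adjusted p = 0.0039), *Mcl1* 0.54 ± 0.13 (adjusted p = 0.013) and *Bak1* −0.66 ± 0.14 (adjusted p = 0.0088). With each library centred on its median, *Mcl1* had 0.33 and did not pass (limma adjusted p = 0.055). *Bax* passed there, with −0.46 (limma adjusted p = 0.0085). Without the replicate block, *Bcl2l1*, *Bcl2l11*, *Bbc3* and *Bik* passed the test at neither time on either scale, with log2 fold changes from −0.44 (*Bcl2l1*, 24 h, spike-in) to 0.71 (*Bik*, 72 h, plain). With the block on plain TPM, an alternative chosen after seeing the data, *Bbc3* passed at 24 h (0.61 ± 0.19, limma adjusted p = 0.037) and *Bik* at 72 h (0.71 ± 0.22, adjusted p = 0.035), where 15.3% and 23.5% of all genes rose. Whether the DKO response differed from that of WT was not tested for these genes, because the WT response chose the set.

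The genotypes were compared at matched times for the 8 tested members other than *Bmf*. None passed the test at 0, 24 or 72 h on the spike-in scale, where 0.0439%, 0.0439% and 0.329% of all genes did (limma, either direction). The smallest adjusted p among the members was 0.36, 1.0 and 0.13 in the order of these times, and on plain TPM 0.14, 0.17 and 0.093. At an unadjusted p under 0.05, 1523, 755 and 4193 of all genes passed on the spike-in scale. *Pmaip1* was higher in both DKO libraries than in both WT libraries at all 3 times on both scales, with no overlap. On the spike-in scale this held for 52.9%, 11.1% and 62.6% of all genes at 0, 24 and 72 h, and for 5, 1 and 6 of these 8 members. On plain TPM the shares of all genes were 24.4%, 21.6% and 39.3%, and 3, 3 and 5 of these 8 members were higher. The share of all genes higher at all 3 times was not computed. *Mcl1* was lower in both DKO libraries than in both WT libraries at all 3 times on plain TPM, as were 16.6%, 18.8% and 15.1% of all genes, and overlapped at each time on the spike-in scale. On plain TPM its log2 fold changes were −0.42, −0.33 and −0.42 (SE 0.13 each; limma adjusted p = 0.17, 0.25 and 0.093). Plain TPM of *Pmaip1* was 15.1 and 22.9 in DKO against 11.3 and 11.5 in WT at 0 h, 25.4 and 34.5 against 24.1 and 21.4 (24 h), and 36.7 and 39.0 against 26.4 and 25.5 (72 h). Of the 8 members, 1, 1 and 3 had an unadjusted p under 0.05 at the 3 times on the spike-in scale, all of them higher in DKO, and on plain TPM 1, 1 and 2 were higher and 1 was lower at each time, where 2530, 2699 and 3871 of all 18232 genes passed in either direction. Over all genes the median difference was 0.29, 0.10 and 0.49 on the spike-in scale, towards DKO. *Bmf* is given as a description. It was higher in DKO than in WT at 0 h on both scales (9.70 and 6.86 against 5.34 and 6.25 plain TPM), overlapped at 24 h, and at 72 h was higher on the spike-in scale (66.6 and 44.7 against 44.1 and 44.4 TPM) but lower on plain TPM (26.3 and 25.9 against 26.7 and 29.8).

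The promoters of the 3 members called on the spike-in scale in DKO are shown because *Bak1* and *Bax* fell together at 24 h and *Bmf* rose at 72 h. They are the 250 bases before the outermost RefSeq start (build GRCm38.p6), 5′ to 3′ on the minus strand in each case, at chr2:118549687-118549936 for *Bmf*, chr17:27028628-27028877 for *Bak1* and chr7:45466899-45467148 for *Bax*. Capitals mark a match to 1 of 3 motifs searched on both strands: CACGTG, an E-box bound by MiT/TFE and MYC factors, GTAAACA, a forkhead site, and TGATGCAA, a site of the ATF4 and CHOP type.
Bmf: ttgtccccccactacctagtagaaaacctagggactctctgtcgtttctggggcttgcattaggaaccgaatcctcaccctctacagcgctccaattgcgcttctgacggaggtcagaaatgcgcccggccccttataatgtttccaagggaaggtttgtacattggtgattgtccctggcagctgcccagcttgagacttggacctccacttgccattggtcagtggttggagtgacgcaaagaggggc
Bak1: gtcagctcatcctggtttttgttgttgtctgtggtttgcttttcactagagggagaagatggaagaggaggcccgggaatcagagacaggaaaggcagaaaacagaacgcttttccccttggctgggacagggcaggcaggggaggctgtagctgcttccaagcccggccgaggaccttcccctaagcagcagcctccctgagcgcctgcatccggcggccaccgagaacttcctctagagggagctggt
Bax: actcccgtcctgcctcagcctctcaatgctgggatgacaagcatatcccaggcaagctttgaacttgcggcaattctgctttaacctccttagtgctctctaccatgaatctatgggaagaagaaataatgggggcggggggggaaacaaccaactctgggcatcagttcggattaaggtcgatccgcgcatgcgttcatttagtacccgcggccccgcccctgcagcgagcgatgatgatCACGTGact
The E-box of *Bax* begins 9 bases before the start, and the first 50 bases of its transcript, not printed, hold another. Over 300 bases that include the first 50 of the transcript, CACGTG was in 7.15% of the 32851 promoters of the table, GTAAACA in 3.65% and TGATGCAA in 0.895%. Of the members, 8 had an entry, with 15 promoters in all. CACGTG was found in 1 promoter each of *Bax* and *Bbc3*, GTAAACA in 1 each of *Bbc3* and *Bcl2l11*, and TGATGCAA in none. These matches are a description of letters only.

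Genes around the family were read in the same fits, from lists chosen with earlier results known. In DKO at 24 h, genes that act downstream of the mitochondrial step were among those that fell. Of 21 genes of the apoptosome, the caspases and their inhibitors, 9 fell and 0 rose on the spike-in scale, where 18.7% of all genes fell, among them *Cycs* (cytochrome c, log2 fold change −1.78 ± 0.28), *Endog* (a mitochondrial nuclease, −1.54 ± 0.31) and *Aifm1* (apoptosis-inducing factor, −1.13 ± 0.27; limma, SE, n = 2). The median of this list was −0.55, against −0.49 over all genes. On plain TPM 8 fell and 2 rose, against 13.3% and 11.6% of all genes. With no filter on low values 5 fell, and 5.93% of all genes, and with a pseudocount of 0.1 8 fell, and 3289 of all 18232 genes. With the replicate block 10 fell, where 38.1% of all genes did. At 72 h 2 of the 21 fell, *Endog* (−1.36 ± 0.31) being one, where 2.95% of all genes fell, and 6 with the replicate block, where 13.2% did. On plain TPM 6 fell and 3 rose at that time, against 9.06% and 17.2% of all genes.

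Of 11 further BCL2 family genes tested, out of 15 listed, 3 fell at DKO 24 h and 0 rose, where 18.7% of all genes fell. These were *Bnip3*, a mitophagy receptor (−1.53 ± 0.39), *Bok*, a relative of BAX and BAK (−1.52 ± 0.34), and *Bad*, a BH3-only gene (−1.44 ± 0.35; limma, SE, n = 2). They passed on plain TPM too, with −0.95 ± 0.25, −0.93 ± 0.17 and −0.86 ± 0.14. With the replicate block 7 of the 11 fell on the spike-in scale, and 38.1% of all genes. With no filter on low values 2 of 13 fell, and 5.93% of all genes. At 72 h *Bcl2l14* fell (−2.00 ± 0.38), where 2.95% of all genes fell, and 2 of the 11 with the block, where 13.2% did.

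Among 15 regulators and partners of the BH3-only proteins and MCL1, 5 fell at DKO 24 h and 0 rose, where 18.7% of all genes fell. The largest changes were those of *Trib3* (−3.47 ± 0.40), *Atf4* (−2.16 ± 0.28) and *Ddit3* (−1.72 ± 0.38), which belong to the amino acid and stress response that drives several BH3-only genes, and of *Foxo4* (−1.16 ± 0.28; limma, SE, n = 2). At 72 h *Trib3*, *Atf4* and *Ddit3* fell again (−3.60 ± 0.40, −1.87 ± 0.28 and −1.51 ± 0.38), where 2.95% of all genes fell. *Dynll2*, named after its values were seen because its product anchors BMF, was the fifth at 24 h (−0.94, limma adjusted p = 0.032), with 66.9 plain TPM at DKO 0 h and 51.5 at 24 h. On plain TPM 5 fell and 2 rose at 24 h, against 13.3% and 11.6% of all genes, and 4 fell and 5 rose at 72 h, against 9.06% and 17.2%. With the replicate block 6 fell at 24 h and 4 at 72 h, where 38.1% and 13.2% of all genes did. With no filter on low values 4 fell at 24 h and 2 at 72 h, where 2308 and 415 of 38890 genes did.

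Of 18 genes of p53 and its targets, 2 fell at DKO 24 h (*Sesn2* −1.23 ± 0.32 and *Aen* −0.89 ± 0.31; limma, SE, n = 2) and 1 at 72 h (*Sesn2* −1.35 ± 0.32). The shares of all genes that fell were 18.7% and 2.95%. With the replicate block the counts were 6 and 10, with 1 gene higher at 72 h, and 38.1% and 13.2% of all genes fell. With no filter on low values 0 of the 18 passed at either time, where 2308 and 415 of 38890 genes fell. On plain TPM 1 fell and 1 rose at 24 h, against 13.3% and 11.6% of all genes, and 2 fell and 2 rose at 72 h, against 9.06% and 17.2%. The list median at DKO 72 h was −0.73, against −0.12 over all genes, and in WT it was −0.28, −1.03 and −1.65 at the 3 times, against −0.33, −0.33 and −0.83. *Pmaip1* and *Bbc3*, which p53 also induces, had 0.71 and −0.33 at DKO 72 h. Of 8 genes of the death receptor pathway, none passed at either time on the spike-in scale without the block, and 3 fell at 24 h and 1 at 72 h with it, where 38.1% and 13.2% of all genes fell.

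The list counts at DKO 24 h moved with single libraries, as did the number of all 18232 genes that fell. In the order apoptosome and caspases, further BCL2 family, regulators, p53 and death receptors, 9, 3, 5, 2 and 0 genes fell with all libraries, and 3408 of all genes. Without DKO 24 h replicate 1 these became 15, 7, 11, 13 and 4, and 8705. Without DKO 24 h replicate 2 they were 3, 1, 2, 0 and 0, and 975. Without DKO 0 h replicate 1 they were 2, 0, 2, 0 and 0, and 760. Without DKO 0 h replicate 2 they were 3, 3, 4, 3 and 0, and 1640. At DKO 72 h, leaving out 1 library gave 0 to 1, 0 to 1, 2 to 3, 0 to 1 and 0, and 66 to 367 of all genes, against 2, 1, 3, 1 and 0, and 537, with all libraries. No gene of the 5 lists rose in these fits. With each library centred on its median, 8, 2, 6, 10 and 1 fell and 3, 0, 1, 1 and 0 rose at DKO 72 h, where 3025 of all genes fell and 2096 rose.

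The genes most like *Bmf* were sought by the Pearson correlation of log2(TPM + 1) over the 14 libraries, each centred on its median. The first 5 of at least 200 bp were *Spred3* (r = 0.979), *4921507P07Rik* (0.975), *Prdm11* (0.975), *Irs1* (0.968) and *Nphs1* (0.967). *Spred3* encodes an inhibitor of MAP kinase signalling, *Irs1* an adaptor of the insulin receptor, and *Nphs1* nephrin. Mean plain TPM of *Nphs1* was 32.8 at WT 0 h and 172 at 144 h, and 31.1 at DKO 0 h and 173 at 72 h. *Irs1* was at 0.299 and 2.35, and at 0.455 and 1.84, in the same groups. Among the members, r with *Bmf* was 0.71 for *Pmaip1*, −0.72 for *Bak1* and −0.85 for *Bax*, and between −0.55 and 0.54 for the other 5. These values describe 14 libraries that share their treatment times, and *Bmf* had been chosen for its own pattern.

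**Figure D4:**
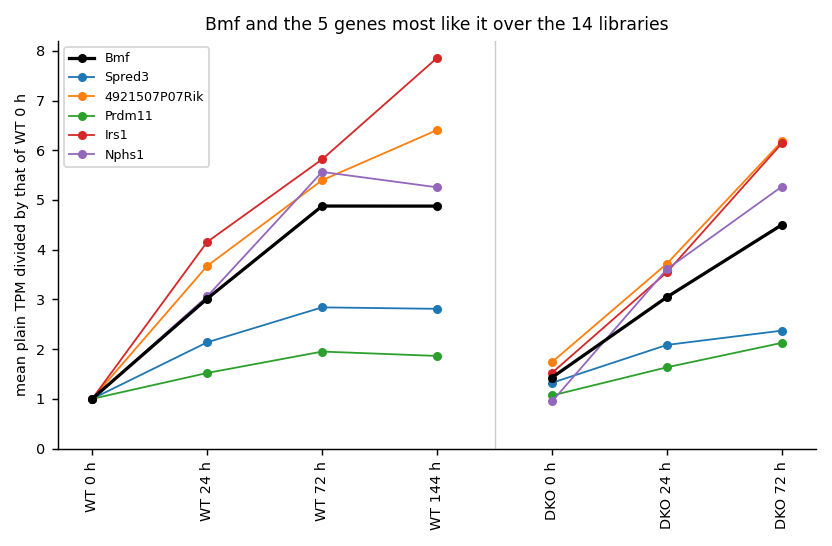
Mean plain TPM of *Bmf* (black) and of the 5 genes most like it over the 14 libraries (colours), divided by the mean at WT 0 h (vertical axis, linear from 0), in the 7 groups (horizontal axis); lines join the groups of a genotype. *Nphs1* and *Irs1*, picked for their likeness to *Bmf*, follow it upwards in both genotypes. *Irs1* is divided by a low value, 0.299 plain TPM at WT 0 h.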

How the data were processed

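RNA-seq libraries of 14 samples in 7 groups of 2 were grouped by their labels. The authors sorted viable single cells, extracted total RNA from a fixed number of cells, added ERCC standards and prepared libraries after depletion of ribosomal RNA. Per the submitters' processing notes, reads were trimmed with cutadapt 2.4, aligned to mm10 with STAR 2.7.3a and quantified with StringTie 2.0, on GENCODE VM19 by the study's methods. The deposited values are TPM, which sum to 1000000 in every library and keep no read counts. The depth is therefore unknown from these files, the depths given by the study were not used here, and no counting error is given. The authors tested counts with DESeq2, which could not be used here.

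Entries of 1 gene identifier were summed. To reach the spike-in scale, 1 factor per library was applied to the deposited TPM, namely the median ratio of the authors' spike-in normalized table (its shown rows, genes of at least 1 TPM) to the deposited TPM. The ratio varied by at most 0.000484% within a library. Both WT 0 h libraries had the same factor, so their spread holds no spread of the standards. Values were tested as log2(TPM + 1), which understates changes of low genes, in limma 3.58.1 (R 4.3.3; empirical Bayes with trend) over all 7 groups, for the 18232 genes whose spike-in normalized TPM averaged 1 or more. Adjusted p (Benjamini-Hochberg over all genes tested) under 0.05 was called, and the procedure was tested on simulated data. The Pearson correlation of replicate differences exceeded 0.1 in 8 of 9 pairs of groups within a genotype (0.0622 to 0.399) and in 1 of 12 between genotypes (−0.501 to 0.116). The study's reporting summary says that, for each replicate, samples of corresponding time points were handled in parallel. It does not say whether this held within a genotype, so the pairing by number within a genotype is an assumption. A block within each genotype cannot be used for DKO against WT, where the block across all libraries was run instead. Alternatives were plain TPM, median centring, a pseudocount of 0.1, no filter, 2 replicate blocks, and each library left out.

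The members and gene lists were chosen with earlier results of these data known. All 10 members are named. From each list at most the 4 called genes with the largest change in a DKO time comparison are named, unless stated, and 1 of them is not reported here. Sequences are from GENCODE M21 and RefSeq. The study's reporting summary calls replicates biological and repeated independently, and p-values measure the spread between these libraries.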

Additional observations from a re-analysis of the deposited data

How the results depend on the processing

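The count of members called at DKO 24 h was 2, and became 4 on plain TPM, 3 with each library centred on its median, 1 with no filter on low values (38890 genes) and 5 when a within-genotype replicate block was used on plain TPM, an alternative chosen after seeing the data. It was 1 to 3 with 1 library left out. At DKO 72 h the count was 1, and became 4 on plain TPM, 4 with each library centred on its median, 0 with no filter, 3 with the within-genotype replicate block, 2 with the replicate block across all libraries and 5 with the within-genotype block on plain TPM. It was 0 to 1 with 1 library left out. With no filter *Bmf* and *Bax* missed the threshold. A replicate block changed no other count of members. The number of all genes called moved as well. At DKO 24 h 2109 rose and 2426 fell on plain TPM, and 2051 and 2996 centred. With no filter these were 89 and 2308, and with the block on plain TPM 2796 and 3029. In the same order, the DKO 72 h numbers were 3145 and 1651, 2096 and 3025, 201 and 415, and 4280 and 2248. There 974 rose and 2403 fell with the within-genotype block, and 103 and 523 with the block across all libraries. DKO against WT gave 0 members at 0, 24 and 72 h under every alternative run. Members that were not called turned direction as follows (log2). For DKO against WT 23 of 216 values did, among them *Bbc3* with −0.073 on plain TPM and −0.10 centred at 24 h and −0.19 and −0.30 at 72 h, *Bak1* with −0.027 and −0.054 at 24 h and *Bcl2l1* with −0.0091 centred at 0 h. The other 16 came with 1 library left out. At DKO 24 h *Bcl2l1* had 0.12 on plain TPM, with or without the block, and 0.017 centred, *Mcl1* had 0.20 and 0.094, and *Bik* had 0.25 and 0.28. With 1 library left out at DKO 24 h, *Mcl1* ranged from −0.79 to 0.067, *Bcl2l11* from −0.49 to 0.54, *Bbc3* from −0.35 to 0.49, *Pmaip1* from −0.072 to 0.28 and *Bik* from −0.76 to 0.41. At DKO 72 h *Bcl2l11* ranged from −0.050 to 0.56 and *Bbc3* from −0.75 to 0.089. The cause of these changes was not tested. Without the filter more genes enter the adjustment. A pseudocount of 0.1 changed no call of a member. With 2 replicates a group and no read counts, differences below the spread between libraries could not be shown.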
